A study of Homo sapiens with 20 samples.

Results

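KM-H2 is an established cell line of classical Hodgkin lymphoma, and the response of this line to an active form of the transcription factor FOXO1 is described here. The cells carried a stable FOXO1(3A)ER fusion, in which an always-active FOXO1 mutant of human sequence is linked to the hormone-binding part of the oestrogen receptor. They were grown in RPMI1640 medium with 10% foetal calf serum and took either 4-hydroxytamoxifen (4OHT), which releases such a fusion protein to act, or its ethanol vehicle for 24 h. The arrays were chosen by title: 2 KM-H2 arrays with 4OHT and 2 with vehicle, which is 4 of the 20 arrays of the study. The other 16 arrays hold L428, L1236, UHO-1 and SUP-HD1, also Hodgkin lines, with the same fusion and the same groups of 2. The labels state a dose of 200 µM 4OHT in a sentence on cells of KM-H2 and L428 that carry KLF4ER, a different fusion, so the dose is given only as labelled. Vehicle and 4OHT cells both carried the fusion. No line without it was given 4OHT among the arrays used, and what 4OHT does by itself cannot be told apart from what the fusion protein does. Per the labels the experiment was carried out 2 times, with no word on whether replicate arrays hold separate cultures; the p-values then rest on the spread between these arrays, which may be technical. In such bulk RNA, fewer cells of a kind and less RNA in each cell cannot be told apart.

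FOXO1 is a forkhead transcription factor that the PI3K and AKT kinases hold out of the nucleus when growth factors signal. In B cells it drives the genes of early B cell development and of the germinal centre, restrains growth and division, and is turned down in the tumour cells of classical Hodgkin lymphoma. Those tumour cells derive from germinal centre B cells but have lost most of the B cell programme, and they live on NF-kB and JAK-STAT signals, surface receptors such as CD30 and a rich output of chemokines.

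Levels are the deposited log2 expression values of Affymetrix Human Gene 1.0 ST arrays, and a change is the mean of the 2 4OHT arrays minus the mean of the 2 vehicle arrays, so 1 log2 unit is a doubling. The fit of limma was made over all 20 arrays on 15850 of 18416 genes, those with a value of at least 5 in at least 2 arrays, and a gene rose or fell where its adjusted p was under 0.05. Of the genes tested, 13151 reached that floor in at least 2 KM-H2 arrays. Each SE and p-value uses a spread that the fit estimates for a gene over the groups of all lines and moderates across genes. It is not the spread of the KM-H2 arrays alone. Medians of the 4 KM-H2 arrays lay between 5.67 and 5.7, and the SD over genes of the difference between replicate arrays was 0.146 with vehicle and 0.150 with 4OHT. Judged by their sorted values, KM-H2 and L428 appear to have been normalised apart from the other 3 lines, which no source states, so levels are set side by side only for these 2 lines. The vehicle cells read as Hodgkin cells on most of their markers: IRF4 stood at 11.58 and 11.69, FSCN1 at 9.78 and 9.75, TNFRSF8 (CD30) at 8.93 and 8.84 and CD40 at 8.79 and 8.70. IL3RA stood below 5, at 4.63 and 4.74. Of the B cell markers, MS4A1 (CD20) stood at 3.71 and 3.49, while CD79A and CD79B lay between 5.52 and 5.69. The T cell markers CD3D, CD3E and CD3G were below 5 on all 4 arrays, but CD4 stood at 9.20 and 9.40.

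FOXO1 itself was read at 9.17 and 9.21 with vehicle and at 9.08 and 9.28 with 4OHT, a change of -0.01 ± 0.08 (SE, adjusted p = 0.956). ESR1 was read at 4.72 and 4.59 with vehicle and at 4.67 and 4.50 with 4OHT. The groups overlapped for both genes. The sources used here do not say which parts of the fusion transcript the probes of these genes match, and a hormone-dependent fusion need not change its RNA, so neither gene checks the labels.

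In KM-H2, 1592 genes rose (10.0% of those tested) and 1943 fell (12.3%), which is 22.3% in either direction. The median change over all genes was -0.003. Changes of over 1 log2 unit were found for 269 rises and 164 falls, over 2 units for 71 and 11, and over 3 units for 25 and 2. Large changes were therefore mostly rises, while falls were more numerous and smaller. Both 4OHT arrays lay above both vehicle arrays for 1591 of the 1592 genes that rose, beside 28.0% of all genes tested. They lay below both for 1940 of the 1943 that fell, beside 30.0% of all genes. For 23 of the rises the vehicle arrays were below 5 and the 4OHT arrays at 6 or above, and for 5 of the falls the reverse held.

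The largest rise was that of LUM, which encodes lumican, a small proteoglycan of the extracellular matrix that binds collagen. Its level was 3.57 and 3.25 with vehicle and 12.30 and 12.05 with 4OHT. The change was 8.77 ± 0.12 (SE from the fit of all arrays, n = 2 arrays a group, adjusted p = 2.18e-23). The vehicle arrays lay in the range of genes without signal, so the 437-fold difference on this scale rests on a background level. FBXO32, the ubiquitin ligase atrogin-1 and a classical FOXO target in muscle, stood at 6.43 and 6.63 with vehicle and at 12.51 and 12.44 with 4OHT. Its change was 5.94 ± 0.08, a 61.5-fold rise (adjusted p = 2.18e-23). For both genes the 4OHT arrays lay far above the vehicle arrays. Groups without overlap were a condition for the 12 largest rises and the 12 largest falls described here.

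NTS, the precursor of the peptide neurotensin, went from 5.48 and 5.43 to 9.82 and 9.75, a change of 4.33 ± 0.12 (adjusted p = 4.79e-18). MC4R, the melanocortin receptor known for its control of feeding, went from 6.41 and 6.15 to 10.37 and 10.38, a change of 4.10 ± 0.14 (adjusted p = 3.52e-16). RGS1, which shortens signals of chemokine receptors in lymphocytes, went from 6.23 and 6.13 to 10.03 and 9.98, a change of 3.83 ± 0.10 (adjusted p = 5.00e-18). The 2 arrays of each group were within 0.3 log2 units of each other in these 3 genes, and the groups lay over 3 units apart. ADGRV1, a very large adhesion G protein-coupled receptor, rose by 3.74 from a vehicle level below 4, and F2RL2, a receptor cleaved by thrombin, rose by 3.66.

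The other 5 of the 12 have varied roles. ANXA1 encodes annexin A1, a lipid-binding protein that dampens inflammation, and stood at 4.14 and 4.12 with vehicle against 7.85 and 7.87 with 4OHT. TAGAP, a gene of activated lymphocytes, stood at 5.39 and 5.32 against 9.05 and 8.95. LOXL2, an enzyme that cross-links collagen, stood at 7.08 and 7.05 against 10.66 and 10.69. CLU, the secreted chaperone clusterin, stood at 8.28 and 8.15 against 11.68 and 11.70. The changes of these genes lay between 3.48 and 3.73. GAB1, a docking protein that feeds receptor signals into PI3K, rose by 3.57 ± 0.13 on its brighter probe set but by 0.45 on its other one, so the size for GAB1 depends on the probe set.

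**Figure D1:**
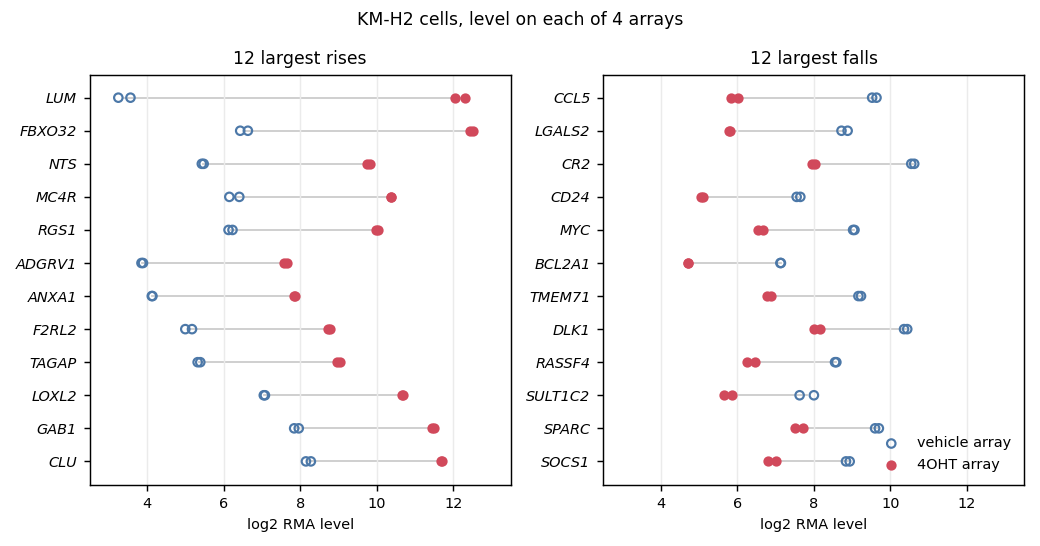
Log2 expression level (horizontal axis) of the 12 genes with the largest rise (left) and the 12 with the largest fall (right) in KM-H2, 1 point for each array, open for vehicle and filled for 4OHT, with a grey line between the group means. Groups without overlap were a condition for choosing these 24 genes. LUM runs from 3.25 and 3.57 to 12.05 and 12.30.

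The largest fall was that of CCL5 (RANTES), a chemokine that Hodgkin cells secrete and that draws T cells and eosinophils. Its level was 9.64 and 9.52 with vehicle and 5.85 and 6.03 with 4OHT, a change of -3.64 ± 0.08 or 12.5-fold lower (adjusted p = 9.49e-20). LGALS2, the lectin galectin-2, went from 8.88 and 8.72 to 5.79 and 5.80, a change of -3.01 ± 0.11 (adjusted p = 9.52e-16). Both genes were high in the vehicle cells and dropped to the middle of the array's range.

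Of the B cell surface genes, CR2 (CD21), the complement receptor of mature B cells, went from 10.62 and 10.54 to 8.04 and 7.95, and CD24, a sialoglycoprotein of B cell precursors, from 7.65 and 7.55 to 5.05 and 5.12. MYC, the growth-promoting transcription factor, went from 9.03 and 9.06 to 6.54 and 6.67, a change of -2.44 ± 0.08 (adjusted p = 6.40e-17). BCL2A1, a survival gene of the BCL2 family that NF-kB induces, went from 7.14 and 7.13 to 4.72 and 4.71, a change of -2.42 ± 0.10 (adjusted p = 1.94e-14). The 2 arrays of a group agreed within 0.2 log2 units in all 4 genes.

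The remaining falls among the 12 largest were TMEM71 at -2.38, DLK1 at -2.32, RASSF4 at -2.22, SULT1C2 at -2.05, SPARC at -2.04 and SOCS1 at -1.98. DLK1 encodes a membrane protein related to the Notch ligands, SULT1C2 a sulphotransferase, SPARC a matrix glycoprotein that binds collagen, and SOCS1 the feedback inhibitor of JAK kinases. SOCS1 stood at 8.94 and 8.84 with vehicle and at 6.81 and 7.0 with 4OHT.

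Genes of connective tissue did not move together. Of 14 tested stromal markers, 3 rose and 3 fell. LUM rose as above, DCN (decorin, a proteoglycan of the same family) went from 3.49 and 3.26 to 6.92 and 6.60, and PDGFRA, a growth factor receptor of mesenchymal cells, from 8.46 and 8.52 to 10.34 and 10.36. VIM, the intermediate filament vimentin, fell by 1.03 from 11.97 and 12.04 to 10.98 and 10.97. COL6A3 fell by 1.69 and COL1A1 by 0.62 (both named after their values were seen). Summed on the linear scale, the 14 markers read 5634 and 5888 with vehicle and 9425 and 8553 with 4OHT, but 5611 and 5869 against 4244 and 4207 without LUM and DCN. The fibroblast gene COL1A2 stood at 5.69 and 5.66 with vehicle and at 5.74 and 5.66 with 4OHT. The summed level of 16 T cell markers was 1391 and 1457 with vehicle against 1253 and 1202 with 4OHT, and without CD4 it was 804 and 783 against 796 and 789. That of 12 myeloid markers was 566 and 574 against 469 and 475, and without ITGAM 433 and 437 against 427 and 427. In each of these lists 1 gene was called, CD4 at -0.53 and ITGAM, an integrin of myeloid cells, at -1.60, and no T cell or myeloid marker rose. The CD4 fall did not pass without vehicle replicate 2 or without 4OHT replicate 2.

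Several of the largest changes had neighbours that moved the same way. The 3 protein-coding genes on each side of each of the 24 genes were taken from the RefSeq gene order, an analysis chosen after values were seen. Around the 12 largest rises, 50 neighbours were tested; 17 of them rose (34.0%) and 5 fell (10.0%), beside 10.0% and 12.3% of all genes. Around the 12 largest falls, 54 were tested; 14 fell (25.9%) and 1, DEPP1, rose (1.85%). At least 1 neighbour moved the same way for 10 of the 12 genes in either set. The number to expect from the shares of all genes was not worked out, and with several neighbours a gene some would have such a neighbour anyway. For some genes the count rested on a small change, as with LIMS1 (-0.22) near SULT1C2 and PHF20L1 (-0.30) beside TMEM71. On chromosome 12, DCN rose by 3.39, EPYC (epiphycan, a further proteoglycan of the family) by 2.02 and BTG1, which slows cell division, by 1.83, all within 3 places of LUM. EPYC went from 3.89 and 3.75 to 5.81 and 5.86 and BTG1 from 9.70 and 9.69 to 11.65 and 11.39, without overlap. KERA, which lies between EPYC and LUM, stood at 3.40 and 3.36 with vehicle and at 3.43 and 3.29 with 4OHT. It was below the floor and not tested, and CCER1 on the same stretch was not called (0.03). Neighbours below the floor are not in the counts above. On chromosome 5, ARRDC3, an arrestin-like gene beside ADGRV1, rose by 3.23 from 8.15 and 8.24 to 11.47 and 11.38. On chromosome 18, PMAIP1 beside MC4R rose by 1.98, and on chromosome 1, RGS2 and RGS13 beside RGS1 rose by 1.80 and 0.99. Near MC4R, LMAN1, CDH20, RNF152 and PIGN were not called. Near RGS1, RGS21 and RGS18 were below the floor and not tested, UCHL5 was not called, and BRINP3 fell by 0.59. Among the falls, CXCL12 beside RASSF4 fell by 1.14 while DEPP1 on the same stretch rose by 1.00. The array does not show whether neighbours shared a transcript or a regulatory element.

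The list of genes that FOXO factors are known to induce held 44 tested genes, of which 14 rose (31.8%) and 2 fell (4.55%). Their median change was 0.06. Here and in the lists below, KM-H2 counts stand beside 10.0% of all genes that rose and 12.3% that fell. FBXO32 led the list of FOXO-induced genes. TNFSF10 encodes the death ligand TRAIL, and went from 6.45 and 6.44 to 9.24 and 9.23, a change of 2.79 ± 0.09 (adjusted p = 3.24e-16). PMAIP1 (NOXA), a pro-apoptotic BCL2 family member, went from 7.36 and 7.29 to 9.32 and 9.30, and SESN3, a sestrin that restrains mTORC1, from 8.07 and 8.12 to 9.87 and 9.82. The groups lay well apart in all 3. GADD45A, a stress-induced gene of DNA repair, rose by 1.70, SESN1 by 1.42, CITED2 by 1.38, the ubiquitin ligase TRIM63 by 1.14 and cyclin G2 (CCNG2) by 1.13, genes named after their values were seen. GADD45B and KLF3 were the 2 that fell, by 0.96 and 0.93, also named after their values were seen. Textbook targets that moved little or not at all stand beside these. CDKN1B, which encodes p27 and holds cells in G1, rose by 0.60, from 8.44 and 8.45 to 9.11 and 8.98 (adjusted p = 7.44e-07). BCL2L11 (BIM), a pro-apoptotic gene, was read at 5.26 and 5.19 with vehicle and at 5.27 and 5.39 with 4OHT, a change of 0.10 ± 0.10 that did not pass (adjusted p = 0.584). BCL6, the germinal centre repressor, stood at 7.63 and 7.69 against 7.60 and 7.55, a change of -0.09 ± 0.07 (adjusted p = 0.495).

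Of the 18 tested BCL2 family genes, PMAIP1 and MCL1 rose and BCL2A1 and BCL2L1 fell. These shares of 11.1% each way were near those of all genes, 10.0% and 12.3%. MCL1, which binds NOXA and protects cells from death, went from 9.76 and 9.87 to 10.31 and 10.23, and BCL2L1, which encodes BCL-XL, from 8.17 and 8.12 to 7.84 and 7.85. Both directions thus held a pro-survival gene. In the list of insulin and PI3K signalling genes 7 of 28 rose and 4 fell. Besides GAB1, the kinase SGK1 rose by 1.11, from 5.11 and 5.32 to 6.35 and 6.28, and the growth factor receptor IGF1R by 0.63, while the regulatory subunit PIK3R1 fell by 0.38.

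The division genes split by phase. Of 34 tested S phase genes, 22 fell and 1 rose, with a median of -0.27. The replicative helicase subunit MCM3 went from 10.35 and 10.27 to 9.37 and 9.41, MCM4 from 10.01 and 10.07 to 9.53 and 9.50, and the initiation factor GINS2 from 9.35 and 9.34 to 8.84 and 8.85. RFC3, a subunit of the clamp loader, went the other way, from 10.15 and 10.16 to 10.97 and 10.87. Of 33 mitosis genes, 2 fell and 6 rose, with a median of 0.07. KIF11, the spindle motor, rose by 0.59 and CENPE, a kinetochore motor, by 0.42, while the checkpoint kinase BUB1 fell by 0.26. CDC20 changed by 0.19 and passed (adjusted p = 0.0274), but did not with arrays centred on their median. That call was also lost with eBayes without trend, and without either vehicle array or 4OHT replicate 1. Under that centring, with eBayes without trend, or without either vehicle array or 4OHT replicate 1, 2 mitosis genes rose. Of 22 genes of the G1 phase, 2 rose and 5 fell. CCND2, cyclin D2, went from 11.01 and 11.12 to 10.12 and 10.24, a change of -0.89 ± 0.10 (adjusted p = 5.13e-07). CDK2 fell by 0.35 while CDK6 rose by 0.52 and CDKN1B by 0.60. The count of 5 falls was 3 with arrays centred on their median, with eBayes without trend, and without vehicle replicate 2 or either 4OHT array.

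The fall of MYC was accompanied by modest shifts in genes of growth. Of 28 tested genes of MYC and ribosome biogenesis, 9 fell and 2 rose, with a median of -0.13. TFAP4, a target of MYC that represses cell cycle inhibitors, fell by 0.71, and FBL, the nucleolar methyltransferase fibrillarin, by 0.40. MAX, the partner through which MYC binds DNA, went from 7.93 and 8.01 to 8.60 and 8.58, a change of 0.62 ± 0.07 (adjusted p = 3.18e-07). MXD1, which competes with MYC for MAX, was the other gene that rose, by 0.34 (named after its value was seen). MAX alone rose when arrays were centred on their median or without vehicle replicate 1 or 4OHT replicate 2.

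PRDM1 encodes BLIMP1, the repressor that ends the B cell programme in plasma cells. It went from 6.52 and 6.79 to 9.12 and 8.92, a change of 2.37 ± 0.12 or 5.16-fold (adjusted p = 3.56e-13), with no overlap. Among 14 tested plasma cell genes, 4 rose and 0 fell, with a median of 0. ELL2, an elongation factor of antibody-secreting cells, rose by 0.61 and CREB3L2 by 0.38. XBP1, which builds the secretory apparatus, was read at 9.03 and 9.03 against 9.25 and 9.16, a change of 0.18 (adjusted p = 0.0167). The XBP1 call was lost with arrays centred on their median, with eBayes without trend and in the fit of the 4 KM-H2 arrays alone. It was also lost without vehicle replicate 1, vehicle replicate 2 or 4OHT replicate 1. IRF4, which acts with PRDM1, stood at 11.58 and 11.69 against 11.53 and 11.66, and the groups overlapped.

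Of 23 tested B cell identity genes, 11 fell and 2 rose, with a median of -0.25 (7 fell with a floor of 8, under which fewer genes were tested). CR2 and CD24 fell as above. BCL11A, a transcription factor of lymphoid progenitors, went from 8.26 and 8.23 to 6.84 and 6.74, a change of -1.46 ± 0.10 (adjusted p = 4.77e-11). FCRLA fell by 1.53, the inhibitory receptor CD22 by 1.17 and the kinase BLK by 1.14 (named after their values were seen). FOXP1, a forkhead factor of B cells, was an exception and went from 7.90 and 7.90 to 10.11 and 10.07, a change of 2.19 ± 0.09 (adjusted p = 4.24e-15). The other gene that rose was TCF3, by 0.29, also named after its value was seen. Of 13 germinal centre genes, GCSAM and RGS13 rose and CXCR5 and MYBL1 fell (15.4% each way). GCSAM, an adaptor of germinal centre B cells, went from 6.01 and 5.89 to 8.33 and 8.26, and CXCR5, which guides B cells to follicles, from 5.89 and 6.07 to 5.01 and 4.87. In the list of lymphocyte migration genes 4 of 19 rose and 5 fell. CCR7, which guides cells to lymph nodes, went from 8.74 and 8.84 to 9.85 and 9.92, and RGS2 from 7.07 and 7.18 to 8.98 and 8.87.

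The MHC class II list had the largest share of falls of the lists examined (92.9%). MHC class II molecules present peptides to CD4 T cells, and their genes share a promoter module that includes a Y box, bound by NF-Y, and that is switched on through CIITA. Of 14 tested genes of the list, 13 fell and 1, RFXANK, rose (by 0.26, named after its value was seen), with a median of -0.83. Besides HLA genes the list holds CIITA, RFX5, RFXAP, RFXANK, CTSS and IFI30, which do not encode class II molecules. HLA-DPB1 went from 10.73 and 10.68 to 8.98 and 9.25, a change of -1.59 ± 0.08 (adjusted p = 5.37e-13). HLA-DPA1 went from 11.82 and 11.83 to 10.44 and 10.53, and HLA-DMA, which helps load peptides, from 9.05 and 9.01 to 7.81 and 7.89. IFI30, a thiol reductase that prepares antigens, went from 10.65 and 10.59 to 9.72 and 9.69. The groups did not overlap in these 4 genes. CIITA itself was read at 7.17 and 7.11 against 6.69 and 6.80, a change of -0.39 ± 0.12 (adjusted p = 0.0240). That call was lost when any 1 KM-H2 array was left out, with an adjusted p of 0.137 and 0.0713 without vehicle replicate 1 and 2, and 0.169 and 0.0503 without 4OHT replicate 1 and 2. The RFXANK call was lost without vehicle replicate 1 or either 4OHT array. Not tested, for want of a probe set with a single symbol, were 5 of the 19 listed genes: CD74, HLA-DRB1, HLA-DRA, HLA-DQA2 and HLA-DQB2. Class I genes moved less: 6 of 11 tested genes fell and 0 rose, with a median of -0.36. The immunoproteasome subunits PSMB9 and PSMB8 fell by 0.82 and 0.60, the peptide-loading chaperone TAPBP by 0.50 and the peptide-trimming enzyme ERAP2 by 0.50.

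**Figure D2:**
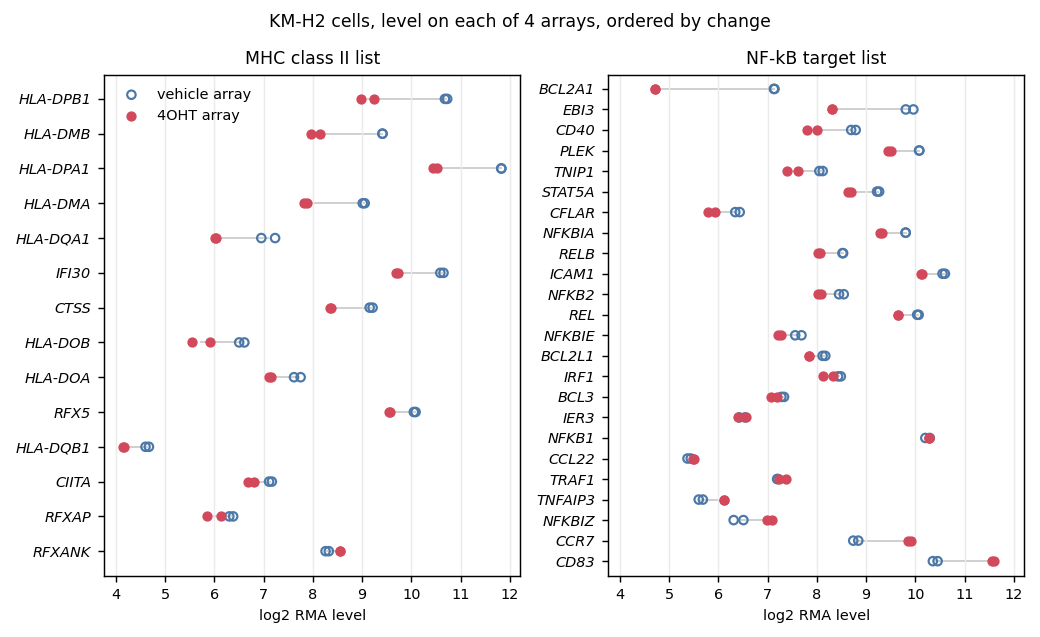
Log2 expression level (horizontal axis) of the 14 tested genes of the MHC class II list (left) and the 24 of the NF-kB target list (right) in KM-H2, ordered by change, 1 point for each array, open for vehicle and filled for 4OHT, with a grey line between the group means. In the left panel the 4OHT points lie to the left for 13 genes and to the right for RFXANK. In the right panel BCL2A1 and EBI3 fall furthest and CD83 and CCR7 rise furthest.

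The letters GATTGG, the core of the Y box, are shown in 3 class II promoters because the genes of this list fell together. Promoter windows, mostly upstream of the gene start, were taken from RefSeq on GRCh38.p14, and the motif searched was GATTGG with its reverse complement CCAATC. Capitals mark the match, and each sequence reads 5′ to 3′ in the direction of its gene.
HLA-DMA: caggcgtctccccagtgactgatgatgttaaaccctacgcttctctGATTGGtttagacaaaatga
HLA-DOA: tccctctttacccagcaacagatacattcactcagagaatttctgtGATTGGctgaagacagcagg
HLA-DOB: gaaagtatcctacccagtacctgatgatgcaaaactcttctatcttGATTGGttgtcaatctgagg
These windows are chr6:32953158-32953223, chr6:33009640-33009705 and chr6:32817082-32817147, on the minus strand, for HLA-DMA, HLA-DOA and HLA-DOB. The match begins at position -80, -68 and -99 from the gene start. HLA-DPB1, HLA-DMB and RFX5 held only the reverse form CCAATC, at -75, -22 and -177, and are not shown. HLA-DQB1, also not shown, held GATTGG at -89 and CCAATC at -64. HLA-DOB too held both forms, with CCAATC at -74, outside the stretch printed above. The windows of HLA-DPA1 (change -1.34), HLA-DQA1 (-1.07), IFI30 (-0.91), RFXAP and RFXANK held no match. HLA-DOA and HLA-DOB, the subunits of an inhibitor of HLA-DM, fell by 0.56 and 0.82. A match on either strand was present in 7 of the 12 genes of the class II list with a window (58.3%), beside 18.9% of the 12377 tested genes with one. RFX5, not an HLA gene, is among the 7, and RFXAP, RFXANK and IFI30 are among the 12. The longer form CTGATTGG was in 3 of 12 (25%) beside 5.45%. A match describes the letters only and is no measure of binding. Among all genes that fell the share with GATTGG was 19.0%.

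Markers of Hodgkin cells fell more often than they rose. Of 30 tested genes, 14 fell and 6 rose, with a median of -0.19. The receptor TNFRSF9 (4-1BB) went from 9.53 and 9.52 to 7.59 and 7.51, the cytokine LTA (lymphotoxin alpha) from 9.13 and 8.94 to 7.47 and 7.51, and GATA3, a T cell factor that Hodgkin cells express, from 7.89 and 7.75 to 6.54 and 6.53. TNFRSF8 (CD30), the defining receptor, went from 8.93 and 8.84 to 7.47 and 7.53, a change of -1.38 ± 0.09 (adjusted p = 4.10e-11). The groups did not overlap in these 4 genes. ID2, an inhibitor of B cell factors, fell by 1.22 and the costimulator CD80 by 1.2, while the interleukin 2 receptor IL2RA rose by 1.32 (all 3 named after their values were seen). The count of 6 rises was 3 without 4OHT replicate 1. In the TNF receptor and ligand list 10 of 29 tested genes fell and 1, TNFSF10, rose.

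Of 24 tested NF-kB target genes, 14 fell and 4 rose, with a median of -0.39. BCL2A1 led the falls. EBI3, a subunit of interleukin 27 and 35, went from 9.96 and 9.81 to 8.30 and 8.30, a change of -1.58 ± 0.11 (adjusted p = 9.02e-11). The inhibitor NFKBIA, which NF-kB induces against itself, fell by 0.50 and CD40 by 0.84 (both named after their values were seen). CD83, a surface marker of activated B and dendritic cells, went the other way, from 10.45 and 10.36 to 11.60 and 11.55, as did CCR7. In the chemokine and cytokine list 8 of 24 fell and 3 rose. CXCL10, which draws T cells and is induced by interferon, went from 8.02 and 7.70 to 10.27 and 10.26, a change of 2.41 ± 0.11 (adjusted p = 7.27e-14), opposite to CCL5. CXCL8 rose by 1.37 from below 5, named after its value was seen.

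In the JAK-STAT list 7 of 23 tested genes rose and 7 fell. SOCS1 fell by 1.98, and PTPN2, a phosphatase that also restrains JAK kinases, went from 7.73 and 7.64 to 8.95 and 8.82, a change of 1.2 ± 0.10 (adjusted p = 1.39e-09). STAT3 rose by 0.53 and the receptor chain IL2RB fell by 0.96. Of 35 interferon-induced genes, 11 fell and 3 rose, with a median of -0.16. MX2, an antiviral GTPase, went from 7.76 and 7.71 to 6.01 and 5.58, XAF1 from 7.45 and 7.44 to 6.02 and 6.0, and IFITM1 from 9.33 and 9.31 to 7.97 and 7.95. The 3 that rose were GBP4, GBP2 and DDX60, by 1.01, 1.10 and 1.26 from below 5, with DDX60 still below 5 with 4OHT (named after their values were seen). Of 18 immediate early genes, 7 fell and 0 rose. JUNB, an AP-1 subunit that is abundant in Hodgkin cells, went from 10.20 and 10.18 to 9.49 and 9.56. IER2 fell by 0.63 and JUND by 0.38. The count of 7 falls was 4 without vehicle replicate 1 or without 4OHT replicate 2.

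SLC2A1, the glucose transporter GLUT1, stood apart from the enzymes of glycolysis. It went from 10.24 and 10.12 to 12.55 and 12.55, a change of 2.37 ± 0.06 or 5.15-fold (adjusted p = 4.61e-19). Of 25 tested genes of glucose transport and glycolysis it alone rose, while 9 fell. Pyruvate kinase (PKM) went from 12.33 and 12.32 to 11.86 and 11.88, the aldolase ALDOC from 9.07 and 8.97 to 8.02 and 8.06, and the enolase ENO2 from 9.30 and 9.38 to 8.89 and 8.92. Of 25 hypoxia-induced genes, SLC2A1 and RORA rose and 4 fell, among them the oxygen sensor EGLN1 by 0.71 and BNIP3L by 0.45; the other falls were VEGFA and DDIT4, by 0.48 and 0.42, named after their values were seen. Without vehicle replicate 1 the count of falls was 2. In the cholesterol list 6 of 18 rose and 4 fell: SC5D rose by 1.36 while the regulator SREBF1 fell by 0.89. The count of 6 rises was 3 without 4OHT replicate 1. Of 22 autophagy genes 5 rose and 0 fell, led by WIPI1 at 0.61, UVRAG at 0.36 and ATG5 at 0.36. That count was 3 without vehicle replicate 2 and 8 with cyclic loess.

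**Figure D3:**
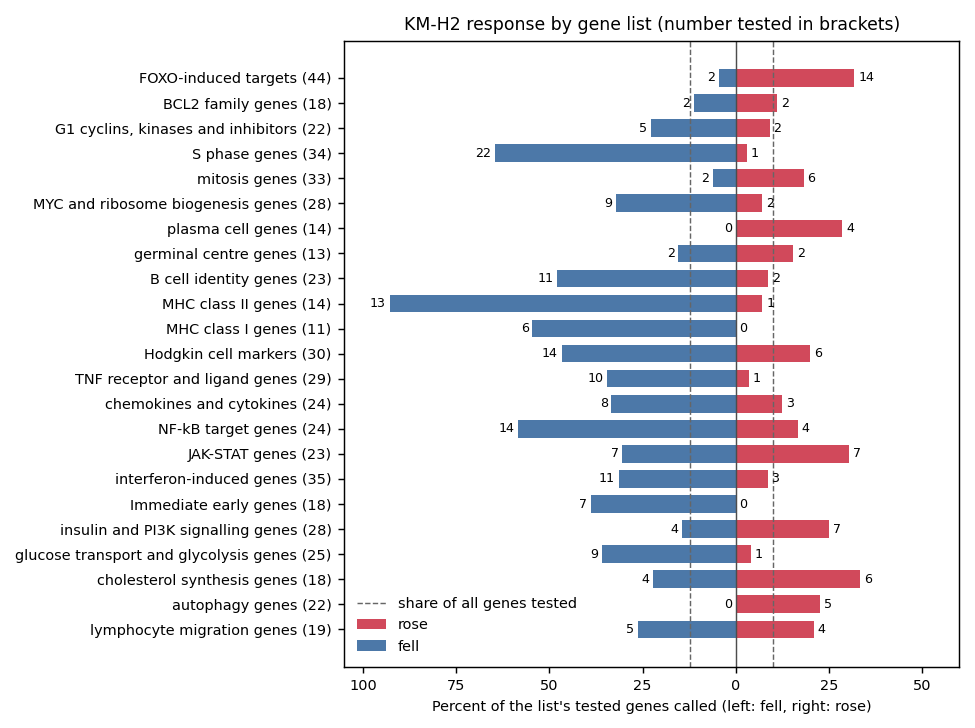
Percent of the tested genes of each of 23 gene lists that rose (bars to the right) or fell (bars to the left) in KM-H2 with 4OHT, with the count at the end of each bar and the number tested in brackets. The dashed lines mark the shares of all genes tested, 10.0% for rises and 12.3% for falls. MHC class II, S phase and NF-kB target genes have the longest bars to the left.

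DLK1 lies at one end of an imprinted domain of chromosome 14, in which a gene for a Notch-like ligand is followed by the long RNA MEG3 and by clusters of snoRNAs and microRNAs. These genes were looked at after the values of DLK1 were seen. Of 27 genes of the domain with a single-symbol probe set, 14 were tested and 12 reached the floor in KM-H2, and 10 fell while 0 rose. Of all genes tested, 12.3% fell and 10.0% rose. Domain genes below the floor were not tested. In KM-H2, SNORD113-3, SNORD114-2 and MIR382 reached 5 only with vehicle, and a floor met in this way favours falls over rises. The counts are therefore a description and no test. DLK1 went from 10.44 and 10.36 to 7.99 and 8.16, a change of -2.32 ± 0.13 (adjusted p = 2.31e-12). MEG3 went from 7.07 and 7.17 to 5.99 and 6.22, a change of -1.02 ± 0.15 (adjusted p = 1.44e-05), and SNORD113-3 from 5.94 and 6.09 to 4.64 and 4.34, a change of -1.52 ± 0.11 (adjusted p = 1.26e-10). The 4OHT arrays lay below the vehicle arrays in all 3. RTL1 and DIO3, which did not reach the floor in KM-H2, and DIO3OS and MIR134 were not called. The probe sets named for microRNAs read primary or precursor transcripts, not mature microRNAs. MIR382 went from 5.32 and 6.04 to 4.52 and 4.31, and MIR154 from 6.34 and 7.05 to 5.56 and 5.36. MIR127 fell by 0.73 and MIR323B by 0.40. The vehicle arrays of MIR382 and MIR154 differed by 0.7 log2 units from each other, more than in most genes described here.

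The 8 mature products of the 4 microRNA genes that fell are given from RefSeq on GRCh38.p14, because these microRNA genes fell beside DLK1 and MEG3. Each reads 5′ to 3′, and capitals mark the seed, bases 2 to 8, by which a microRNA pairs with its targets.
hsa-miR-127-5p: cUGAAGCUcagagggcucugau
hsa-miR-127-3p: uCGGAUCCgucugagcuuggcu
hsa-miR-382-5p: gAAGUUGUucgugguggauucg
hsa-miR-382-3p: aAUCAUUCacggacaacacuu
hsa-miR-323b-5p: aGGUUGUCcguggugaguucgca
hsa-miR-323b-3p: cCCAAUACacggucgaccucuu
hsa-miR-154-5p: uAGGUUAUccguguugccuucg
hsa-miR-154-3p: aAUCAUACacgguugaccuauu
They lie on the plus strand, at chr14:100883001-100883022, chr14:100883035-100883056, chr14:101054316-101054337, chr14:101054352-101054372, chr14:101056233-101056255, chr14:101056269-101056290, chr14:101059769-101059790 and chr14:101059805-101059826 in this order. No seed was shared between them. In L428 most of these genes, among them the snoRNAs, MIR382, MIR154 and MIR127, were below 5 on all 4 arrays and had no level to lose, so the absence of calls there says nothing of their response. DLK1 stood in L428 at 6.57 and 6.19 with vehicle and at 6.15 and 6.39 with 4OHT, and MEG3 at 5.45 and 5.09 against 5.39 and 5.49. The falls of DLK1 and MEG3 in KM-H2, where both started higher, differed from their changes in L428 by -2.21 and -1.18 (adjusted p = 5.13e-09 and 0.000198).

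**Figure D4:**
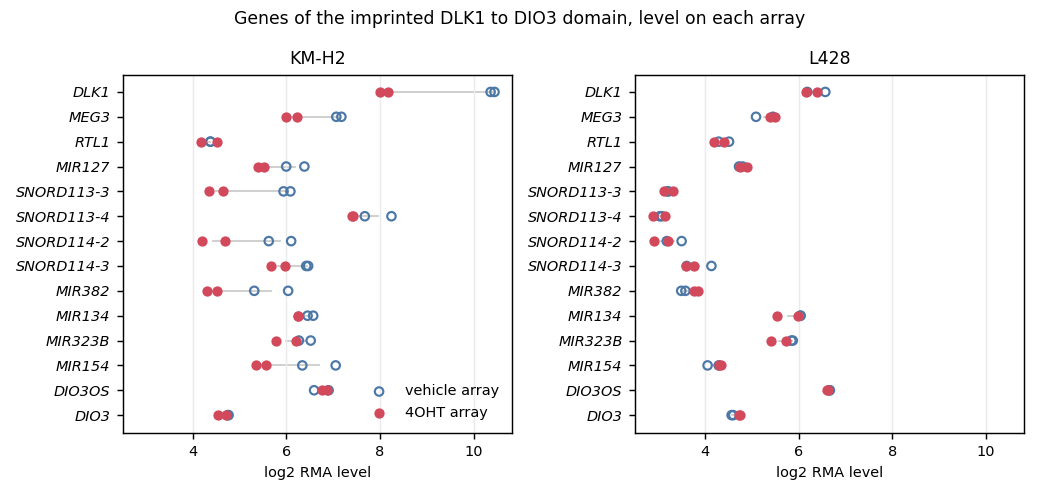
Log2 expression level (horizontal axis) of the 14 tested genes of the imprinted domain from DLK1 to DIO3 in KM-H2 (left) and L428 (right), 1 point for each array, open for vehicle and filled for 4OHT, with a grey line between the group means. In KM-H2, DLK1 moves from above 10 to about 8, while in L428 both groups lie between 6.15 and 6.57.

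The KM-H2 response was set against that of L428 by a test of the difference between changes. The change was higher in KM-H2 than in L428 for 2020 genes (12.7%) and lower for 1614 (10.2%). Against the mean change of the other 4 lines it was higher for 1545 genes (9.75%) and lower for 1705 (10.8%), 20.5% in all. The largest KM-H2 changes were picked on the same KM-H2 arrays that enter these differences, which favours large differences for them. LUM, MC4R, NTS, LOXL2, F2RL2 and ADGRV1 had the largest positive differences from L428, and none of these 6 was called in L428, where their changes ran from -0.33 to 0.11. All but LOXL2 were below 5 on the 4 L428 arrays. NTS also rose in UHO-1, by 1.66, and MC4R by 0.54. FBXO32 rose in L428 by 3.89, in UHO-1 by 0.74 and in SUP-HD1 by 0.51, with a change of 0.12 in L1236 that did not pass. CCL5 was high in L428 too, at 10.72 and 10.82 with vehicle and 10.76 and 10.76 with 4OHT, and was not called there. LGALS2 stood in L428 vehicle at 4.79 and 4.83, below the floor, with no level to lose. CR2 fell in L428 by 0.65, all of it below the floor of 5, and rose in L1236 by 2.26. RGS1 rose in all 5 lines: the 3.83 of KM-H2 stands beside 3.77 for L1236, 2.16 for L428, 1.94 for UHO-1 and 0.70 for SUP-HD1.

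**Figure D5:**
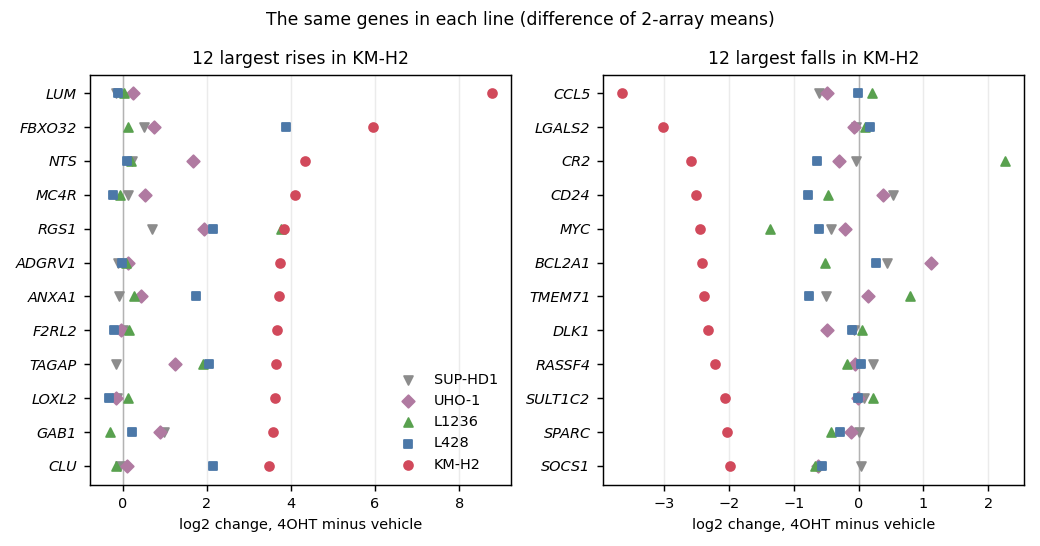
Log2 change, 4OHT minus vehicle (horizontal axis, difference of the means of 2 arrays), of the 12 largest rises (left) and 12 largest falls (right) of KM-H2 in each of the 5 lines, 1 symbol for each line. The KM-H2 symbol lies furthest from 0 in all 24 genes, which were picked on KM-H2, and RGS1 in L1236 (3.77) and CR2 in L1236 (2.26) are the largest changes of another line except that of FBXO32 in L428 (3.89).

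Other genes passed the test in L428 but not in KM-H2, or moved in opposite directions. MINAR2 went from 7.10 and 7.26 to 5.98 and 5.96 in KM-H2, a change of -1.21, and rose by 2.54 in L428, a difference of -3.75 (adjusted p = 8.86e-13). HTR2B, a serotonin receptor, changed by 0.33 in KM-H2 (adjusted p = 0.172) and by 3.05 in L428, and PCYT1B, an enzyme of phosphatidylcholine synthesis, by -0.20 (adjusted p = 0.384) and 2.46. HTR2B passed in KM-H2 in the fit of its 4 arrays alone and with a replicate block (adjusted p = 0.0458 and 0.0460). BCL2L11 and BCL6, which were not called in KM-H2, rose in L428 by 1.47 and 1.10, and the differences were -1.37 and -1.18 (adjusted p = 1.41e-07 and 7.88e-09). SLC2A1 rose by 2.37 in KM-H2 and by 0.23 in L428, a difference of 2.13 (adjusted p = 8.23e-15). PRDM1 rose in all 5 lines, most in L1236 at 5.04, and its rise in KM-H2 was larger than the 1.29 of L428 by 1.07 (adjusted p = 4.22e-05).

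Over lists, the differences from L428 had both signs. Of 33 mitosis genes, 26 had a higher change in KM-H2 and 0 a lower one; in L428, 27 of them fell (17.5% of all genes fell there) and 0 rose (12%), with a median of -0.49. Of 34 S phase genes, 31 fell in L428 with a median of -0.62, and 16 had a higher and 1 a lower change in KM-H2. Of 24 NF-kB targets 12 had a lower and 2 a higher change in KM-H2 than in L428, where 2 fell and 6 rose. Of 14 genes of the class II list 9 had a lower and 1 a higher change in KM-H2, and 8 of the 14 fell in L428, with a median of -0.29. Of 23 JAK-STAT genes, 13 had a lower and 6 a higher change in KM-H2.

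Of the 269 genes that rose by over 1 log2 unit in KM-H2, 129 (48.0%) also rose in L428 by any amount. They are 6.79% of the L428 rises of any size, a set with a lower threshold. In UHO-1, where 13.4% of all genes rose and 11.1% fell, it was 132 (49.1%, and 6.23% of its rises). In SUP-HD1, where 3.68% of all genes rose and 2.35% fell, it was 70 (26.0%, and 12% of its rises). In L1236, where 8.25% rose and 14.9% fell, it was 62 (23.0%, and 4.74% of its rises). With rises of any size in KM-H2 too, the shared genes were 31.6% of the rises of L428 and 30.5% of those of UHO-1. For SUP-HD1 and L1236 they were 36.2% and 20.8%. Of these 269, 88 (32.7%) rose in none of the other 4 lines and 17 (6.32%) in all 4, while 33 fell in L1236. Of the 164 that fell by over 1 unit, 44 (26.8%) also fell in L428, and 94 (57.3%) in none of the other lines. The shares of all genes called in none or in all 4 of the other lines were not worked out. The share of rises and that of falls were not compared by a test. Calls in every line used the same estimate of a gene's spread, taken over the groups of all lines.

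The forkhead core motif was no more frequent at the promoters of genes that rose. The letters GTAAACA, searched on both strands of the same promoter windows, were in 4 of 214 windows of genes that rose by over 1 log2 unit (1.87%), in 2.09% of those of all genes that rose and in 2.27% of all tested genes with a window. The 4 genes were BTG1, CALD1, JMY and ST3GAL6. Of the list of FOXO-induced targets, 3 of 35 windows held it (8.57%). LUM and CCL5 had no window in the table. The E-box CACGTG, which MYC with MAX can bind, was in 11.7% of the windows of genes that fell, in 9.41% of those that rose and in 9.44% of all tested. Among genes that fell by over 1 log2 unit it was in 3 of 128 windows (2.34%), and among those that rose by over 1 unit in 7.01%. These windows hold a small part of the regulatory sequence, and no match says only that these letters are not in this window.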

How the data were processed

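RNA from KM-H2 cells with 4OHT or vehicle (2 arrays each) was measured on Affymetrix Human Gene 1.0 ST arrays. Values are on the log2 scale, as the authors deposited them after RMA summarisation, per the submitters' processing notes. The RMA version and the genome build are not given in the sources used here. GEO's annotation gave 19457 of 33268 probe sets a single gene symbol and 1751 more than 1; the remaining 12060 were unlisted and stay unnamed. The probe set with the highest mean stood for each of 767 genes with several. Once sorted, values of any pair of KM-H2 or L428 arrays differed by no more than 0.253, but from those of the other 3 lines by 0.712 or more.

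Group means of all 20 arrays (10 groups) were fitted with limma 3.58.1 in R 4.3.3 (lmFit, eBayes with trend, 10 residual degrees of freedom), with p-values adjusted by Benjamini-Hochberg over 15850 genes. The fit was tested on simulated data. Differences between lines were contrasts of the same fit. Adjusted p-values in the text are limma's. For arrays the number of arrays, not a read depth, limits the precision. Samples were grouped by title. Deviations of same-numbered arrays were nearly uncorrelated in KM-H2 (-0.082), so the numbers were not used as pairs. Over the lines this correlation ran from -0.557 to 0.294, so arrays of other lines may share structure that the fit leaves out. Named genes are the 12 largest rises and 12 largest falls that passed the test without overlap and with a mean of at least 5 in 1 group, 12 genes of prior interest, up to 4 members of each list with the smallest p, and the 6 with the largest difference each way (mean of at least 5 in 1 KM-H2 group) from L428 and from the mean of the other 4 lines. Members and lists were chosen with earlier results of these data known. Other normalisations, floors, variance models, probe set rules, a replicate block and leaving out arrays were tried.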

Additional observations from a re-analysis of the deposited data

Results flagged for a closer look

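Of the 38 genes named for their size, their difference between lines or prior interest, 32 differed between KM-H2 and L428 by the test of the difference between changes (adjusted p under 0.05), and so did 70 of the 126 genes named only as list members. The differences below are the KM-H2 change minus the L428 change in log2 units.

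Higher in KM-H2 were LUM by 8.87, MC4R by 4.32, NTS by 4.22, LOXL2 by 3.94, F2RL2 by 3.86, ADGRV1 by 3.76 and GAB1 by 3.34. None of these 7 genes was called in L428. SLC2A1 was higher by 2.13, FBXO32 by 2.05, ANXA1 by 1.99, RGS1 by 1.66, TAGAP by 1.60, CLU by 1.33 and PRDM1 by 1.07, and all 7 rose in both lines.

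Lower in KM-H2 were genes that fell there. CCL5 differed by -3.63, LGALS2 by -3.19, BCL2A1 by -2.69, RASSF4 by -2.26, DLK1 by -2.21, SULT1C2 by -2.04 and SPARC by -1.75, and none of these was called in L428. In L428 vehicle, however, LGALS2 (4.79 and 4.83), RASSF4 (4.76 and 4.58), SULT1C2 (3.8 and 3.73) and SPARC (4.47 and 4.68) were below the floor of 5 and had no level to lose, so their differences say nothing of how L428 responds. CR2 differed by -1.94, MYC by -1.83, CD24 by -1.73, TMEM71 by -1.62 and SOCS1 by -1.41, and these 5 fell in both lines, CR2 in L428 below the floor. MINAR2 differed by -3.75 and moved in opposite directions. HTR2B differed by -2.72, PCYT1B by -2.66, BCL2L11 by -1.37 and BCL6 by -1.18, and these 4 rose in L428 and were not called in KM-H2. CDKN1B rose in both lines and differed by -0.47.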

How the results depend on the processing

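All 6 counts of genes (rises and falls in KM-H2, and the differences from L428 and from the mean of the other 4 lines, each way) stayed within 1.5 times the main count in each alternative tried. For KM-H2 the rises ran from 1232 with arrays centred on their median to 1702 with cyclic loess, beside 1592, and the falls from 1660 with a floor of 8 to 2086 with quantile normalisation, beside 1943. With a replicate block, 1510 rose and 1837 fell, and of the named genes the block ended the call of GIMAP4 and gave one to HTR2B, as did the fit of the 4 KM-H2 arrays alone; the replicate numbers were not used as pairs. When each KM-H2 array was left out in turn, 1139 to 1387 genes rose and 1364 to 1458 fell. The differences from L428, with each KM-H2 or L428 array left out, ran from 1540 to 1817 and from 1348 to 1430, and those from the other 4 lines from 1042 to 1548 and from 1265 to 1713. Of 164 named genes, 146 were called, and 0 reversed in any alternative. Without single KM-H2 arrays between 10 and 14 of these calls were lost, all of changes below 0.6 log2 units. With the mean of probe sets the log2 change of GAB1 in KM-H2 was 2.01 in place of 3.57. With 2 arrays a group, small changes of dim genes limit what can be called.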

Other observations

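Lists of the general machinery of the cell held calls in both directions, beside 10.0% of all genes that rose and 12.3% that fell. Of 69 tested cytosolic ribosomal protein genes 3 rose (4.35%) and 2 fell (2.90%). Of 34 proteasome genes 3 rose (8.82%) and 4 fell (11.8%), and these falls included the immunoproteasome subunits PSMB8, PSMB9 and PSMB10. Of 72 mitochondrial ribosomal protein genes 5 rose and 11 fell, with a median of -0.07, while 44 fell in L428 with a median of -0.25; the 11 falls were 5 without vehicle replicate 2. Of 78 genes of oxidative phosphorylation 7 rose (8.97%) and 14 fell (17.9%), and SDHA, a subunit of complex II, went from 10.35 and 10.46 to 9.81 and 9.82. The count of 14 was 5 without vehicle replicate 1. Of 60 replication-dependent histone genes 2 rose and 9 fell, beside 29 that fell in L428; without 4OHT replicate 1 the falls were 2.

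In the amino acid supply list 8 of 18 genes fell and 2 rose: the transporter subunit SLC7A5 fell by 0.62 while SLC1A4 rose by 0.39. Of 24 genes of the unfolded protein response 6 fell and 3 rose, with HERPUD1 at -0.31. The 6 falls were 2 without vehicle replicate 1 or without 4OHT replicate 2. Of 12 oestrogen-induced genes, PRL and XBP1 rose and CXCL12 and SIAH2 fell (16.7% each way, beside 10.0% and 12.3% of all genes). PRL (prolactin) was read below 5 on all 4 arrays, at 3.82 and 3.67 with vehicle and 4.86 and 4.88 with 4OHT, and rose in UHO-1 by 5.09. MT2A was the 1 of 9 metallothionein genes that fell (11.1%, beside 12.3% of all genes), by 0.52. GIMAP2, a GTPase gene of lymphocytes, fell by 0.64, while GIMAP4, at or below 4.14 on all 4 KM-H2 arrays, rose in L1236 by 3.75.

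Probe sets without a single gene symbol were called less often than genes. Of 1526 tested probe sets with several symbols 72 rose and 82 fell. Of 7057 that the annotation does not list 122 rose and 121 fell. Both sets had lower shares of calls than the genes tested, of which 10.0% rose and 12.3% fell. These probe sets stay unnamed.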
